A study of Mus musculus with 22 samples.

Results

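The ileum of young mice labelled SIRT1 iKO was compared with the ileum of young mice labelled Flox control, a name used for mice whose gene is flanked by loxP sites and not deleted. The comparison rests on 8 of the 22 arrays of the series, chosen by their sample titles, with 4 iKO and 4 flox mice. All 8 mice were C57BL/6 males aged 6 to 8 weeks, kept on chow and given no treatment. The other ileum arrays came from male C57BL/6 mice of 24 months, 3 labelled flox and 4 labelled iKO, and they entered the fit to estimate the spread. The labels give neither the Cre driver nor the deleted exons, and they do not spell out what the i in iKO stands for. RNA was extracted from whole tissue, so fewer cells of a type and less RNA per cell cannot be told apart in any value below.

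Each array carried 1 sample labelled with Cy3, and its probes are 60 bases long. Levels are given on the log2 scale as the processed signal relative to the 75th percentile of the same array, so a level of 0 is that percentile and a difference of 1 is a doubling of signal. The 75th percentile of the 8 arrays lay between 918 and 1115 signal units, and 53.9% to 60.2% of probes were well above background. The young arrays were on 4 slides, each with 1 flox and 1 iKO array, so each slide gives its own difference. On every slide the flox sample was at position 1 and the iKO sample at position 2, so in the young arrays genotype and position cannot be told apart. Whole-array correlations between flox arrays ran from 0.976 to 0.991, between iKO arrays from 0.976 to 0.986, and across the genotypes from 0.972 to 0.991. Enterocyte markers were high on all 8 arrays, with a mean level of 4.67 to 5.36, and so were Paneth cell markers, with 7.22 to 7.80. Slide 3 stood apart. Its iKO array, iKO 4, had a mean level of 2.29 over 15 B and plasma cell markers, against -1.31 to -0.53 on the other 7 arrays, and its flox array, flox 3, had a mean of -0.98 over 17 T and intraepithelial lymphocyte markers, against 0.12 to 0.77 on the others. The medians of gene lists that moved without these 2 arrays are therefore also given without both, as are some single genes. Those fits used the 13 other ileum arrays. The 2 arrays were picked after the values were seen, by these B and T cell marker levels.

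SIRT1 is a deacetylase that uses NAD+ as a cosubstrate and acts on histones and on transcription factors and coactivators, among them p53, NF-kB, FOXO proteins and PGC-1alpha. In the intestine it has been studied in bile acid uptake, in stem and progenitor cells, in Paneth and goblet cells and in the response to microbes. Metallothioneins, of which only Mt1 passed the test below, are small cysteine-rich proteins that bind zinc and copper. In mice, Mt1 and Mt2 lie side by side and are both known to be induced by metals and by glucocorticoids through MTF1 and the glucocorticoid receptor.

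Of 15490 genes tested, 7 passed an adjusted p of 0.05 (limma, Benjamini-Hochberg), which is 0.0452% of the genes. In the iKO ileum 6 genes rose (0.0387%), namely Mt1, Prom2, Wfdc15b, Ankrd22, Slc44a2 and Il17re, and 1 gene fell (0.00646%), namely Pyroxd2. Of the young groups, only iKO had Prom2 and Wfdc15b well above background on all 4 arrays. Among the young arrays these genes therefore met the filter only through the group where they were high, and their p values rest on dim flox values. Separation of the groups without overlap, which these 7 also showed, was found in 2.18% of all genes. The largest of these differences was that of Mt1, whose neighbour Mt2 did not pass. The Mt1 probes and the promoter windows of both genes are shown first. The Mt2 probe is not printed, and the Mt1 probes were not aligned with Mt2. The array holds 2 non-overlapping probes for Mt1 on chromosome 8, at chr8:92769155-92769214 and chr8:92768988-92769047 (mm7, plus strand, as given in the array files), with 107 bases between them. The third probe is the brighter of the Sirt1 probes, at chr10:62855795-62855854 (mm7, minus strand), which reads the targeted gene.
Mt1 main probe: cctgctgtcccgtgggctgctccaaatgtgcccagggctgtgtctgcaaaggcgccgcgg
Mt1 second probe: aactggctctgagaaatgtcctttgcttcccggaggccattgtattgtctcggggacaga
Sirt1 main probe: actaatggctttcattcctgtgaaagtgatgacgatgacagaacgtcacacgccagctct

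The windows printed as promoters are those of Mt1, chr8:94178839-94179138, and Mt2, chr8:94172368-94172667 (RefSeq, GRCm38.p6, both on the plus strand). They run from 250 bases before to 50 bases after the annotated start. Whether transcription in the ileum begins at that start was not tested. Capitals mark the core of the metal response element bound by MTF1, searched as TGCACNC and TGCGCNC on both strands.
Mt1 promoter: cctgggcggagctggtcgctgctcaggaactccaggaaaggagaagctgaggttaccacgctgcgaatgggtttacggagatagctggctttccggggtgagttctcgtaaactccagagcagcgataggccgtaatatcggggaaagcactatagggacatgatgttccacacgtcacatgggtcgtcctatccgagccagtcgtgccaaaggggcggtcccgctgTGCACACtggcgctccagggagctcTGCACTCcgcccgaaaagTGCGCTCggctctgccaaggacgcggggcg
Mt2 promoter: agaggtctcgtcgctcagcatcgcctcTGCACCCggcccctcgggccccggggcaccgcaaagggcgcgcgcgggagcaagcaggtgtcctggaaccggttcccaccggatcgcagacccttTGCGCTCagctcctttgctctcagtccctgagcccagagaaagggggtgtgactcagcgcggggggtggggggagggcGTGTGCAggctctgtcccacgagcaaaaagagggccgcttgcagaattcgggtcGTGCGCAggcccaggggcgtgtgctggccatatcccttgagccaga
The Mt1 window held 3 matches, all in the forward orientation, and the Mt2 window held 4, of which 2 were in the reverse orientation. In Mt1 only the first match lay before the annotated start, and in Mt2 only the last lay after it. Either window may leave out part of the promoter, so these counts do not compare the promoters. Among the 32851 windows of the table, 1.97% held 3 or more matches and 25.7% held at least 1. Of the other genes that passed, Il17re had 1 match and 1 of the 2 Slc44a2 windows had 1, whereas the windows of Prom2, Ankrd22, Wfdc15b and Pyroxd2 had 0. A match of these letters is a description of the window and not evidence of binding.

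The targeted gene itself did not pass the test. Sirt1 read 0.96, 0.60, 1.19 and 0.92 in flox 1 to 4 and 0.64, 0.72, 0.70 and 0.75 in iKO 1 to 4. The iKO values lay within a narrow band inside the range of the flox values, and the lowest array of all was flox 2. The fitted difference was -0.21 ± 0.12 (SE, n = 4 per group; limma adjusted p = 0.999), with slide differences from -0.44 to 0.04. A second probe, 17506 bases away, differed by 0.00 ± 0.13. Since the deleted exons are not given in the labels, these probes may lie outside the deleted part and then check nothing about the genotype. In the aged ileum the main probe differed by -0.50 ± 0.13 (adjusted p = 0.176). Of the other sirtuins, which are deacylases of the same family, 5 were tested. Sirt5, a mitochondrial desuccinylase, had a difference of -0.29 ± 0.12 (unadjusted p = 0.0336, adjusted p = 0.999), and it was lower in iKO on all 4 slides, as were 6.46% of all genes. Sirt2, Sirt3, Sirt4 and Sirt7 had differences of -0.22, -0.17, -0.10 and 0.06, and none passed. Sirt2 and Sirt4 turned to 0.02 and 0.01 without flox 3 and iKO 4, and Sirt7 to -0.05 without iKO 1.

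Mt1 read 3.31, 3.78, 3.90 and 4.32 in flox 1 to 4 and 7.88, 7.59, 7.48 and 7.16 in iKO 1 to 4. Every iKO array was above every flox array, and the gap between the groups was 2.84. Expressed as signal, the 4 flox arrays read 9681 to 21290 and the 4 iKO arrays 156690 to 215510, and the probe was saturated on 0 of the 8 arrays. The difference was 3.70 ± 0.19 (adjusted p = 5.77e-07), a 12.96-fold higher signal, with 3.16 to 4.28 on the 4 slides. The second Mt1 probe, which is much dimmer, read -2.39, -1.60, -1.54 and -0.94 in flox and 3.38, 2.99, 2.62 and 1.90 in iKO. Its difference was 4.34 ± 0.33 (adjusted p = 2.99e-05 over 22282 probes), so both Mt1 probes showed the rise.

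Mt2, whose probe at chr8:92762515-92762574 (mm7) starts 6640 bases before the main Mt1 probe, did not pass. It read 3.37, 4.20, 3.94 and 5.29 in flox 1 to 4 and 2.40, 4.51, 3.57 and 5.19 in iKO 1 to 4. The groups overlapped throughout, and the lowest array of all was iKO 1, which was the array with the highest Mt1 level. The difference was -0.28 ± 0.63 (adjusted p = 0.999), and it was positive on 2 slides and negative on the other 2, from -1.80 to 1.26. It turned to 0.22 without iKO 1 and to 0.08 without flox 4, and was -0.80 without flox 3 and iKO 4. Within each array, Mt1 minus Mt2 was -0.37 ± 0.44 (SD, n = 4) in flox and 3.61 ± 1.48 (SD, n = 4) in iKO. These means differed by 3.98, which is given as a description with no test, since the ratio was chosen after the values were seen. It does not show that Mt2 kept its level.

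**Figure D1:**
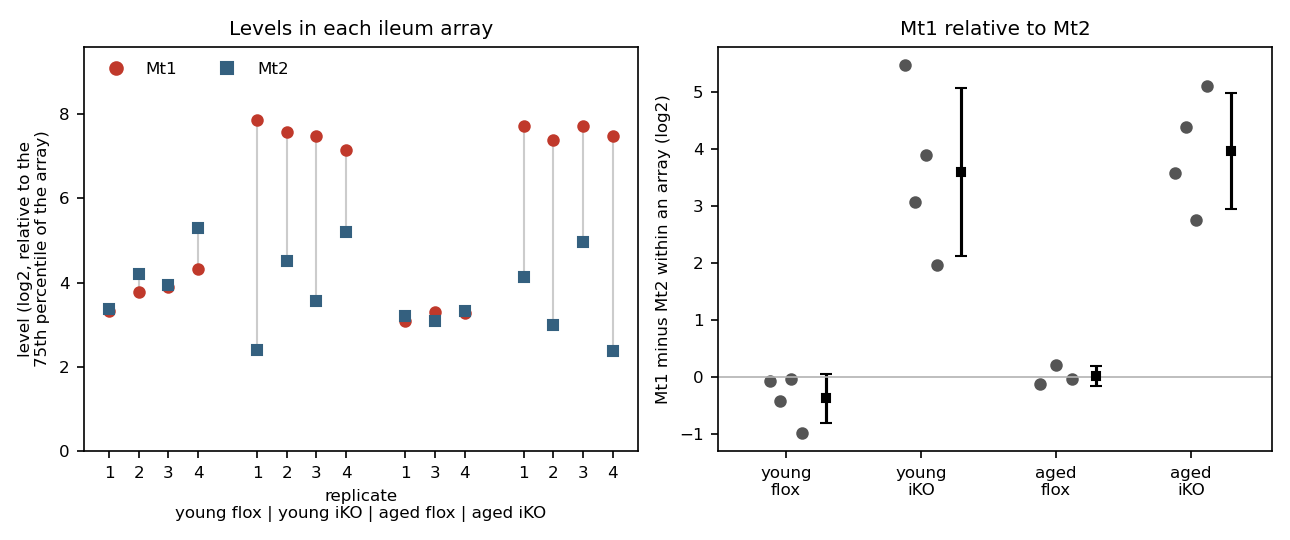
The left panel plots Mt1 (circles) and Mt2 (squares) in each of the 15 ileum arrays, as log2 levels relative to the 75th percentile of the array. The right panel plots Mt1 minus Mt2 within each array, with squares and bars for the group mean ± SD. Mt1 lay between 3.31 and 4.32 in young flox and between 7.16 and 7.88 in young iKO, while Mt2 overlapped between the genotypes.

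The other metallothioneins did not pass either. Mt3, first described in brain, differed by -0.01 ± 0.10 and Mt4, an epithelial form, by 0.02 ± 0.27, and the sign of both depended on which arrays were kept. Of 26 genes of metallothioneins and zinc handling, all tested, 15 were higher and 11 lower in iKO, with a median difference of 0.04 (0.09 without flox 3 and iKO 4), against a median of -0.01 over all genes. Mt1 was the only member that passed. Slc30a1, a zinc exporter whose transcription follows cellular zinc through MTF1, differed by 0.21 ± 0.24. Mtf1 itself differed by -0.12 ± 0.16. The importer Slc39a4, which takes up dietary zinc at the apical membrane of enterocytes, differed by -0.11 ± 0.18 and turned to 0.09 without flox 3 and iKO 4. The zinc importers Slc39a6 and Slc39a8 had differences of 0.37 ± 0.13 and 0.40 ± 0.18 (unadjusted p = 0.0140 and 0.0480, adjusted p = 0.999 for both). Both were higher in iKO on all 4 slides, as were 5.98% of all genes.

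Prom2 encodes prominin 2, a cholesterol-binding protein of plasma membrane protrusions in epithelial cells. It read -5.89, -6.34, -6.35 and -5.88 in flox, where no array was well above background, and -2.31, -2.45, -2.71 and -2.54 in iKO, where all 4 were. The measured difference was 3.61 ± 0.25 (adjusted p = 1.03e-05). With each flox value raised to the lowest signal well above background on its array, iKO was 3.6-fold higher, which is not a strict lower limit. With normexp background correction the difference was 1.55 ± 0.12, so its size is not settled by these arrays. A second, dim probe of Prom2 was well above background on 1 flox and 2 iKO arrays and was not tested, and its slide differences ran from -1.19 to 4.18. Its relative Prom1, prominin 1, had overlapping groups and a difference of 0.07 ± 0.34, which turned to -0.10 without flox 3 and to -0.06 without iKO 2.

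Wfdc15b belongs to the genes with a whey acidic protein four-disulfide core, a fold shared by secreted protease inhibitors and antimicrobial peptides. It read -5.33, -5.34, -4.40 and -3.69 in flox, with 1 array well above background, and -1.93, -1.66, -1.83 and -1.43 in iKO, with all 4 well above background. The flox arrays were widely spread (SD 0.80), yet all 4 lay below every iKO array (SD 0.22). The difference was 2.98 ± 0.34 (adjusted p = 0.00217), and the smallest slide difference was 1.86, on slide 4. With normexp background correction the difference was 1.66 ± 0.15. Since 3 of the 4 flox values were not well above background, the size of the difference is not settled by these arrays. Of 5 genes of this family tested, 2 were higher and 3 lower, with a median of -0.05, or 0.20 without flox 3 and iKO 4. Slpi, the secretory leukocyte protease inhibitor, was abundant on all arrays and differed by -0.05 ± 0.37, a sign that turned in 7 of the alternative analyses. Wfdc21 had a difference of -1.73 ± 0.80 (unadjusted p = 0.0503), with 3 flox arrays and 1 iKO array well above background and overlapping groups.

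Ankrd22 encodes a small ankyrin-repeat protein. It read -0.96, -1.12, -1.08 and -0.92 in flox and 0.75, 0.55, 0.91 and 0.36 in iKO. The groups were separated by 1.27, and the difference of 1.66 ± 0.15 (adjusted p = 2.32e-04) ran from 1.43 to 1.88 on the slides. This was a 3.17-fold higher signal. Its second probe was not well above background on any of the 8 arrays.

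Slc44a2 encodes a choline transporter-like protein. It read -1.70, -1.83, -1.95 and -1.85 in flox and -0.91, -0.77, -1.14 and -0.16 in iKO, the highest being iKO 4. The difference was 1.09 ± 0.16 (adjusted p = 0.0209), and 0.86 ± 0.11 (adjusted p = 0.0107) without flox 3 and iKO 4. A second probe that overlaps the first differed by 0.94 ± 0.18 and did not pass (adjusted p = 0.164 over all probes). Slc44a3, of the same family, had a difference in the other direction of -0.29 ± 0.11 (unadjusted p = 0.0203, adjusted p = 0.999). Its 4 iKO values were all below the 4 flox values, as in 1.2% of all genes. Slc44a1 and Slc44a4 had differences of 0.13 ± 0.09 and 0.06 ± 0.13, the latter -0.06 without iKO 1.

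Il17re encodes a receptor subunit that pairs with IL-17RA to bind IL-17C, a cytokine made by epithelial cells. It read -0.10, 0.17, 0.40 and 0.02 in flox and 1.44, 1.40, 0.86 and 0.93 in iKO. The groups were separated by 0.46, less than the range within iKO. The difference was 1.04 ± 0.15 (adjusted p = 0.0209), and 1.20 ± 0.16 (adjusted p = 0.0165) without flox 3 and iKO 4. These values are from its brightest probe. Averaged over its probes, dim ones included, the difference was 0.58 ± 0.18 and did not pass (adjusted p = 0.956). Of 9 interleukin 17 receptors and epithelial ligands tested, Il17re was the only one that passed, with 6 higher, 3 lower and a median of 0.03 (0.07 without flox 3 and iKO 4). Il17ra, Il17rc and Il17rd had differences of 0.06, 0.03 and -0.07, and each turned sign under some alternative. Il17rb, the subunit for IL-17E, had 0.57 ± 0.34, of which most came from iKO 1 at -0.75, against -2.81 to -2.33 on the other iKO arrays.

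Some of the 7 calls depended on the fit, and Slc44a2 and Il17re were lost most often. Slc44a2 did not pass when any of flox 1, flox 2, flox 3, flox 4, iKO 1 or iKO 2 was left out, with an adjusted p of 0.0540 to 0.104. Il17re did not pass without flox 1, flox 2, flox 4, iKO 1 or iKO 2, with 0.0825 to 0.104. With any 1 array left out, their differences stayed between 0.89 and 1.22 and between 0.94 and 1.14. With the slide as a fixed factor on the 15 ileum arrays 5 genes passed, with Il17re and Slc44a2 just short of the threshold (adjusted p = 0.0538 for both), and with no filter on dim probes these 2 had 0.0780. Without flox 3 and iKO 4, and with the 13 other ileum arrays, all 7 passed, with Mt1 at 3.84, Prom2 at 3.55, Wfdc15b at 2.98, Ankrd22 at 1.74 and Pyroxd2 at -0.80. On the 6 other young arrays alone, Mt1, Prom2 and Ankrd22 passed, while Wfdc15b, Slc44a2, Il17re and Pyroxd2 did not (adjusted p = 0.278 for each). Fitted on the 8 young arrays alone, Mt1, Prom2 and Ankrd22 passed, while the adjusted p was 0.0673 for Wfdc15b, 0.0695 for Pyroxd2, which is described next, 0.248 for Il17re and 0.287 for Slc44a2. With the slide as a fixed factor on these 8 arrays, Mt1 and Prom2 passed, and the adjusted p was 0.0601 for Ankrd22, 0.254 for Wfdc15b, 0.336 for Pyroxd2, 0.614 for Il17re and 0.617 for Slc44a2. When a gene's probes were averaged, dim ones included, Prom2 (2.29), Ankrd22 (0.89), Il17re (0.58), Slc44a2 (1.01) and Pyroxd2 (-0.33) did not pass, with an adjusted p of 0.124, 0.419, 0.956, 0.0770 and 0.9996.

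Pyroxd2, which encodes a mitochondrial protein with a pyridine nucleotide-disulphide oxidoreductase domain, was the only gene that passed with a lower level in iKO. It read -1.42, -1.31, -1.42 and -1.33 in flox and -2.04, -2.30, -2.14 and -2.06 in iKO. Both groups were tight, with an SD of 0.06 and 0.12, and they were separated by 0.61. The difference of -0.76 ± 0.08 (adjusted p = 5.45e-04) ran from -0.88 to -0.63 on the slides, and flox was 1.69-fold above iKO. These values are from its brightest probe. Averaged over its probes, dim ones included, the difference was -0.33 ± 0.13 and did not pass (adjusted p = 0.9996).

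**Figure D2:**
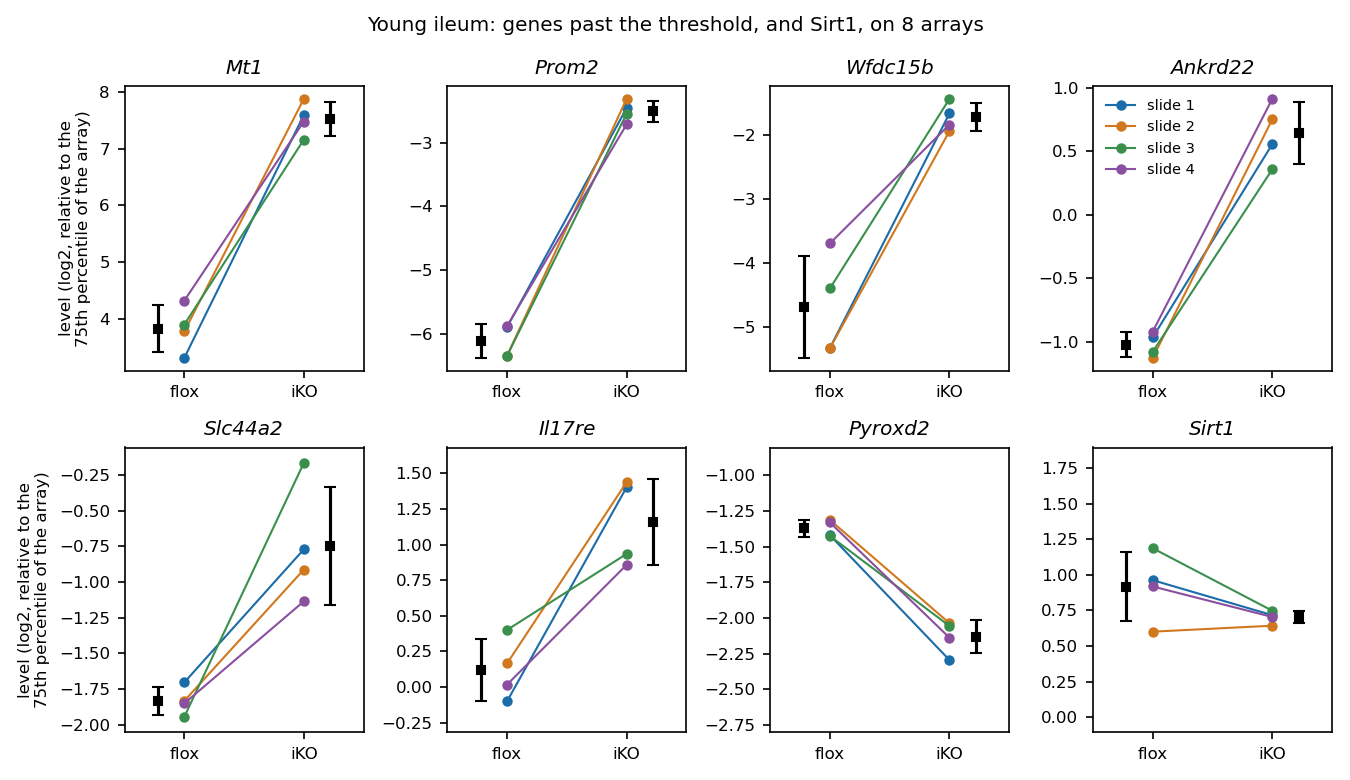
Each panel plots 1 gene as log2 levels relative to the 75th percentile of the array, with 1 point per array and lines joining the flox and iKO arrays of a slide, and squares with bars for the mean ± SD of 4 arrays. The 7 genes past the threshold had no overlap between flox and iKO, whereas the Sirt1 values overlapped.

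All 7 differences had the same direction and passed in the aged ileum (adjusted p from 1.89e-07 to 0.0191), whose arrays had other positions on the slides. There, position 3 held 2 flox arrays and 1 iKO array, and position 4 held 1 flox array and 3 iKO arrays, so genotypes can be set side by side within a position. Mt1 read 3.09 and 3.30 in flox and 7.72 in iKO at position 3, and 3.29 in flox and 7.39 to 7.72 in iKO at position 4. The within-position differences of Prom2 were 4.90 and 3.99, those of Wfdc15b 3.89 and 4.11, and those of Ankrd22 1.64 and 2.40. For Slc44a2 they were 1.30 and 1.31, for Il17re 1.04 and 1.11, and for Pyroxd2 -0.48 and -0.73. The fitted aged difference of Mt1 was 4.35 ± 0.21, larger than in the young ileum by 0.66 ± 0.28 (unadjusted p = 0.0356, adjusted p = 0.99988). That of Prom2 was 4.61 ± 0.27, and it is not set against the young difference, whose flox arrays were not well above background. Over all genes the difference between the young and the aged effect passed for 0 of 15490 genes, or 0.0%, with limma, and had an unadjusted p under 0.05 in 397 genes, or 2.56%. It passed for 5 genes without aged flox 1 and for 1 without aged flox 4.

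At an unadjusted p under 0.05, 642 genes differed, or 4.14% of those tested, 286 higher (1.85%) and 356 lower (2.3%) in iKO. The 4 iKO values lay all above the flox values for 152 genes (0.981%) and all below for 186 (1.2%). The genes next in order after the 7 came close to the threshold. Pdzk1ip1, a small membrane protein that interacts with PDZ proteins, read 0.57 to 0.77 in flox and 1.27 to 1.55 in iKO. Its difference was 0.75 ± 0.12 (adjusted p = 0.0507). Macc1, a regulator of MET transcription, differed by 0.83 ± 0.14, and Arhgap8, a GTPase-activating protein, by 1.00 ± 0.17. Pkp1, a desmosomal plakophilin, differed by 0.56 ± 0.09, Pllp, the apical membrane protein plasmolipin, by 0.76 ± 0.13, and the zinc finger gene Zfp7 by 0.61 ± 0.10. For these 5 the adjusted p was 0.0600. All 6 genes were higher in iKO on all 4 slides, as were 5.98% of all genes, with groups that did not overlap. They were picked by small p from these same values, so this adds no separate support. In the aged ileum Pdzk1ip1, Macc1, Arhgap8, Pkp1 and Pllp passed in the same direction, by 0.89, 0.85, 1.34, 0.73 and 0.97 (adjusted p = 0.0109, 0.0436, 0.00662, 0.00885 and 0.0109), and Zfp7 differed by 0.59 (adjusted p = 0.0669). The young and aged arrays share no sample, but their fit shares 1 estimate of the spread.

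On the lower side, the genes next in order were ccdc198 and Fpgs. The gene ccdc198 read 4.48, 4.08, 4.49 and 4.85 in flox and 3.14, 2.56, 3.08 and 3.37 in iKO, a difference of -1.44 ± 0.26 (adjusted p = 0.0788). In the aged ileum it passed, with -2.35 (adjusted p = 0.00202). Fpgs, which adds glutamates to folates and so keeps them in the cell, differed by -0.55 ± 0.10 (adjusted p = 0.0788). Fgfr4, a receptor of the ileal hormone FGF15, read -0.90, -0.34, -0.19 and -0.48 in flox and -1.18, -1.20, -1.35 and -1.42 in iKO. Its difference was -0.81 ± 0.15 (adjusted p = 0.0825). It was lower in iKO on all 4 slides, as were 6.46% of all genes, and its 2 other probes had differences of -0.36 and -0.62, neither of which passed. Without flox 1, Fgfr4 passed with -0.95 (adjusted p = 0.0154). Further genes of small p on the lower side were the membrane serine protease Hpn (-1.15 ± 0.24), the scaffold Grip1 (-1.52 ± 0.32, not well above background on any iKO array) and Fam126a (-0.84 ± 0.18). Clic6 (-0.74 ± 0.16), Sdsl (-0.43 ± 0.09) and the glycosylation enzyme Alg2 (-0.44 ± 0.10) followed, with adjusted p values of 0.253 to 0.254. Without iKO 2, Grip1 passed with -1.84 (adjusted p = 0.0411). B4galnt4, a glycosyltransferase, differed by -0.52 ± 0.10 in the young and by 0.19 ± 0.11 in the aged ileum. This difference between ages had an unadjusted p of 3.49e-04 and an adjusted p near 1 (0.99988).

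Some large differences lay in genes with a wide spread. Ly6d, a surface protein of the Ly6 family, read 0.89, 1.36, -0.13 and 0.89 in flox and 2.36, 1.77, 3.51 and 3.56 in iKO. The groups did not overlap, and the difference was 2.05 ± 0.45 (adjusted p = 0.250), with 0.88 to 3.70 on the slides. The genes Epop (1.17 ± 0.58), Paqr8 (1.13 ± 0.50) and Rap2b (1.03 ± 0.35, with 0.12 to 2.32 on the slides) did not pass. They also had all iKO values above all flox values, as did 0.981% of all genes. Among those with all iKO values below, which were 1.2% of all genes, Pcdh19 read -2.35, -2.99, -0.22 and -2.36 in flox and -4.29 to -3.85 in iKO. Its difference was -2.01 ± 0.57 (adjusted p = 0.720). Aadac, a microsomal esterase, read -0.28, 0.26, 2.66 and 0.31 in flox and -1.87 to -0.37 in iKO, a difference of -1.94 ± 0.80 (adjusted p = 0.999). In both, flox 3 was the highest array, and without flox 3 and iKO 4 the differences were -1.45 and -1.58. Sult1c2, a sulfotransferase, differed by -1.02 ± 0.27, Ugt2b38, a glucuronosyltransferase, by -1.10 ± 0.31, and Hsd17b13, a lipid droplet dehydrogenase, by -0.97 ± 0.31, or -0.61 without flox 3 and iKO 4. None of these passed.

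**Figure D3:**
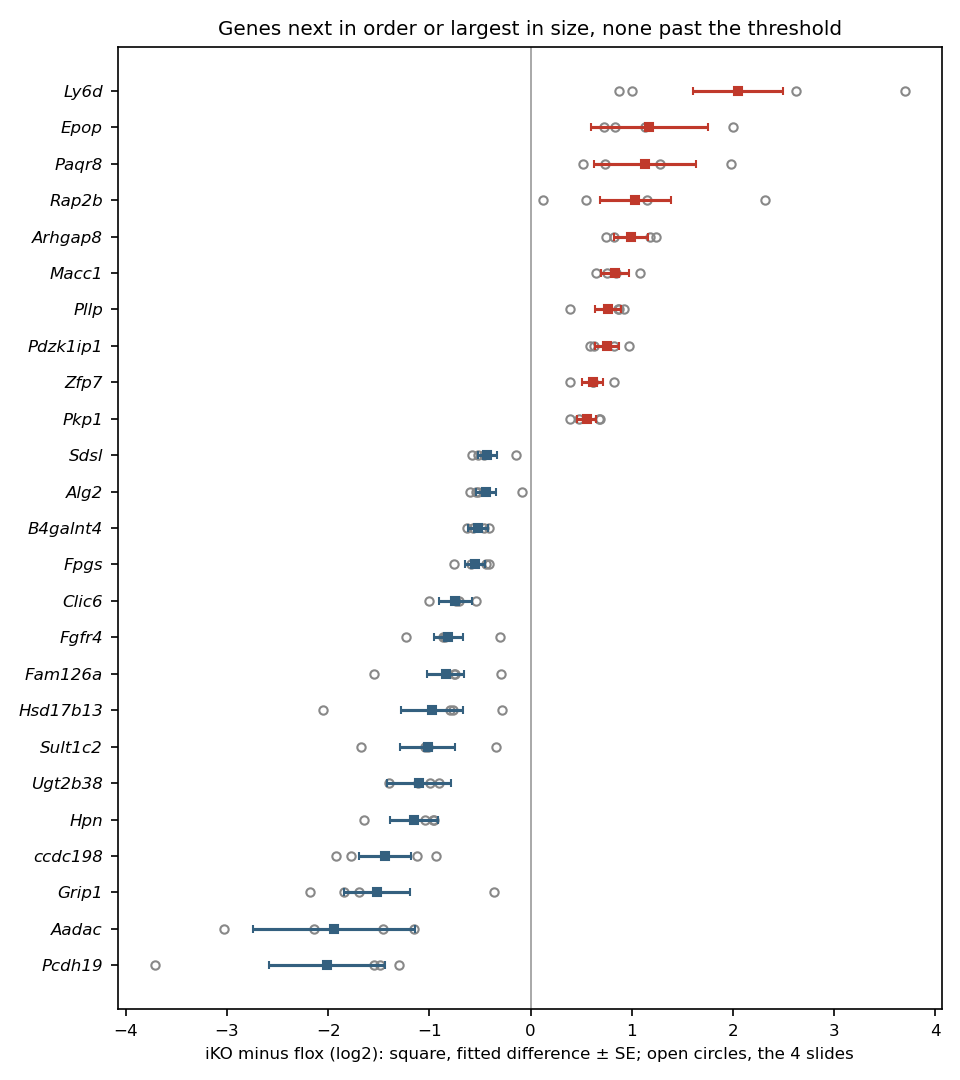
The plot shows, for genes next in order of p or largest in size without overlap, the fitted difference ± SE (squares, log2) and the difference on each of the 4 slides (open circles). None passed the threshold; Of the genes plotted, Ly6d, Pcdh19 and Rap2b had the widest spread over slides.

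Gene lists for pathways and for cell types were described by their counts. Over all genes tested, 48.2% had a difference above 0 and 51.8% below 0. Bile acid handling, which the ileum performs through apical uptake and FXR signalling, had 9 of 17 genes higher and 8 lower, with a median of 0.01. Fabp6, the ileal bile acid binding protein, read 3.52 to 3.82 in flox and 3.64 to 3.93 in iKO, with overlapping groups and a difference of 0.11 ± 0.12. Pcbd1, of the same list, had a difference of -0.22 ± 0.12 (adjusted p = 0.999), or -0.06 without flox 3 and iKO 4. Enterocyte markers had a median of 0.01, brush border genes -0.03, lipid absorption -0.06 and cholesterol and fatty acid synthesis -0.06. Without flox 3 and iKO 4 these medians were 0.09, 0.08, 0.09 and -0.01, and that of bile acid handling was 0.04. Fabp2, the intestinal fatty acid binding protein, had a difference of 0.26 ± 0.13. Dhcr7, the last enzyme of cholesterol synthesis, had -0.35 ± 0.14 (unadjusted p = 0.0321), or -0.20 without flox 3 and iKO 4. Lct, lactase, had -1.60 ± 0.76, with flox 3 at 0.13 against -4.18 to -1.89 on the other flox arrays, and -0.85 without flox 3 and iKO 4. Targets of PPAR-alpha had 17 of 25 genes lower and a median of -0.15, which was -0.03 without flox 3 and iKO 4. Angptl4, an inhibitor of lipoprotein lipase among those targets, had -0.62 ± 0.36, or -0.20 without these arrays.

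NAD synthesis and use, which supplies the cosubstrate of sirtuins, had 10 of 14 genes lower and a median of -0.10, which was -0.04 without flox 3 and iKO 4. The mitochondrial synthase Nmnat3 had -0.33 ± 0.10 (unadjusted p = 0.00739) and was lower on all 4 slides, as were 6.46% of all genes. Qprt had -0.97 ± 0.43 and Nmnat1 -0.20 ± 0.10. Without flox 3 and iKO 4, Nmnat3 was at -0.348, Qprt at -1.05 and Nmnat1 at -0.084. Targets of p53 had 10 of 19 genes higher and a median of 0.05, and Bax, a proapoptotic target, had -0.14 ± 0.08. Cell cycle genes had a median of 0.07, which turned to -0.04 without flox 3 and iKO 4, with Mki67 at 0.20 ± 0.14, and the unfolded protein and heat shock list had 0.03 (0.05 without them). The oxidative stress and xenobiotic list had 21 of 30 genes lower and a median of -0.07, which turned to 0.03 without these arrays. Its glutathione transferases Gsta1, Gsta3 and Gsta4 had differences of 0.64, 0.64 and 0.68 (unadjusted p = 0.0213, 0.0152 and 0.0141). The carboxylesterase Ces2a had -0.46 ± 0.17 and the peroxidase Gpx1 -0.22 ± 0.10 (unadjusted p = 0.0184 and 0.0388). None of the members of these lists passed after adjustment. The clock list had a median of -0.02, or 0.03 without these arrays.

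The epithelial lineages differed in how evenly their markers lay. Enteroendocrine markers had 20 of 25 genes lower in iKO and a median of -0.18. No member passed. An unadjusted p under 0.05 was found for 6 of the 25, all lower, beside 2.3% of all genes. Chga, chromogranin A of hormone granules, read 3.28, 3.69, 3.56 and 3.14 in flox and 3.11, 2.92, 2.63 and 2.78 in iKO. All iKO values were below all flox values, as in 1.2% of all genes, and the difference was -0.56 ± 0.16 (adjusted p = 0.720). Chgb, chromogranin B, had -0.49 ± 0.19, Tph1, the enzyme of serotonin synthesis in enterochromaffin cells, -0.61 ± 0.26, and the hormones Cck and Sct -0.40 ± 0.15 and -0.36 ± 0.16. Without flox 3 and iKO 4, Chga, Chgb, Tph1, Cck and Sct were at -0.48, -0.40, -0.51, -0.45 and -0.14. Pax4, a transcription factor of endocrine progenitors, had -1.67 ± 0.38 (adjusted p = 0.300), but it was well above background on 2 flox and 0 iKO arrays. The list was lower on all 4 slides, with medians from -0.64 on slide 3 to -0.07 on slide 1, and its median was -0.04 without flox 3 and iKO 4. The aged ileum gave -0.74 for Chga, -0.70 for Chgb, -0.84 for Tph1 and -0.03 for Cck.

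Tuft cell markers had 10 of 11 genes lower and a median of -0.28, which was -0.16 without flox 3 and iKO 4, and no member passed. Ltc4s and Alox5ap, which act in leukotriene synthesis, had -0.34 ± 0.15 and -0.33 ± 0.15 (unadjusted p = 0.0381 and 0.0447), and Avil, advillin, had -0.32 ± 0.17. Without flox 3 and iKO 4, Ltc4s was at -0.16 and Avil at -0.19. Paneth cell markers had 12 of 14 genes higher, with a median of 0.11, or 0.19 without these arrays. The defensin Defa21 was saturated on 6 of the 8 arrays, so no difference is given for it, although the Paneth count and medians include it. Lysozyme Lyz2 differed by 0.16 ± 0.08 and Mmp7, which processes prodefensins, by 0.35 ± 0.18. Lyz2 and Mmp7 were higher on all 4 slides, as were 5.98% of all genes, and no Paneth marker passed. Goblet cell markers had a median of 0.02 and stem cell markers -0.03, which were 0.14 and 0.05 without flox 3 and iKO 4. The crypt base gene Olfm4 had -0.54 ± 0.23 (unadjusted p = 0.0318) and was lower on all 4 slides, as were 6.46% of all genes. The stem cell factor Ascl2 had -0.38 ± 0.22. Sp5, a Wnt target, had -0.997 ± 0.36 and the Notch target Hes5 -0.998 ± 0.43 (unadjusted p = 0.0162 and 0.0357), while the Wnt list as a whole had a median of -0.05 and the Notch list -0.07, or -0.01 and -0.00 without flox 3 and iKO 4.

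Lists of defence and immune genes had most members at higher values in iKO, by amounts that depended on single arrays. The interferon response had 24 of 26 genes higher, with a median of 0.29 (0.25 without flox 3 and iKO 4), but on slide 1 the median was -0.55, against 0.34 to 0.72 on the others. Ifit3 had 0.53 ± 0.24 (unadjusted p = 0.0475) and Irf9 0.26 ± 0.14, and no member passed. NF-kB and cytokine genes had 17 of 20 higher and a median of 0.24, which was 0.09 without flox 3 and iKO 4. Birc3 had 0.29 ± 0.13, Nfkbia, the inhibitor that NF-kB induces, 0.34 ± 0.21, and the chemokine Ccl20 0.84 ± 0.45, with iKO 4 at -0.78 against -2.35 to -2.02 on the other iKO arrays. Without flox 3 and iKO 4 these differences were 0.17, 0.23 and 0.24. Antimicrobial genes had 15 of 20 higher and a median of 0.28, which was 0.62 without flox 1, -0.02 without flox 3 and 0.22 without flox 3 and iKO 4. Saa1, an acute phase protein, read 7.76, 8.04, 1.77 and 6.70 in flox and 8.39, 7.95, 7.78 and 6.12 in iKO, so that flox 3 alone was far below the rest. Its difference of 1.49 ± 1.17 ran from 0.19 to 4.35 on the slides and was 0.54 without flox 3 and iKO 4. Reg3g was lowest in flox 3 as well, at 7.58, and Reg1, a regenerating islet-derived lectin, was highest there, at 1.01, with a difference of -0.94 ± 0.35 (unadjusted p = 0.0167), or -0.48 without both arrays.

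T and intraepithelial lymphocyte markers had 15 of 17 higher and a median of 0.33, which was -0.03 without flox 3 and iKO 4. Cd3d read -0.55 in flox 3 against 0.52 to 0.98 on the other flox arrays, and Cd2 had a difference of 0.95 ± 0.55, or 0.44 without these arrays. B and plasma cell markers had 14 of 15 higher and a median of 0.72, which was -0.24 without these arrays. As flox 3 and iKO 4 were picked by their T and B cell marker levels, the fall of these medians without them follows from that choice. Cxcl13, a chemokine of B cell follicles, read 1.73 in iKO 4 against -2.96 to -1.73 on the other 7 arrays, and Blnk had 0.33 ± 0.27, or 0.07 without these arrays. Macrophage markers had a median of -0.00, or -0.12 without these arrays, with Itgam at 0.59 ± 0.23 and Cx3cr1 at -0.50 ± 0.23. Without these arrays Itgam was at 0.345 and Cx3cr1 at -0.64. Markers of mesenteric fat and pancreas had 9 of 11 genes lower and a median of -0.88, which was -0.38 without flox 3 and iKO 4. Their slide medians ran from -2.23 to 1.47, while those of the B and plasma cell markers ran from -0.65 to 3.73. Cfd, adipsin, read 4.18, 5.22, 5.06 and 1.64 in flox and 3.62, 5.81, -4.88 and -1.87 in iKO, and Adipoq ran from -6.59 to 3.17 over the 8 arrays. The mean level of the 11 tested fat and pancreas markers was -0.68 to 1.37 in flox and -2.40 to 1.71 in iKO, lowest in iKO 3 and iKO 4. Smooth muscle, fibroblast, endothelial and neuronal lists had medians of -0.03, -0.05, -0.12 and -0.07, which were 0.13, -0.07, -0.05 and 0.04 without flox 3 and iKO 4, with Col6a2 at -0.23 ± 0.11 and the neuronal Elavl3 at -1.44 ± 0.50. The part of these cell types in the 7 genes past the threshold was not tested.

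**Figure D4:**
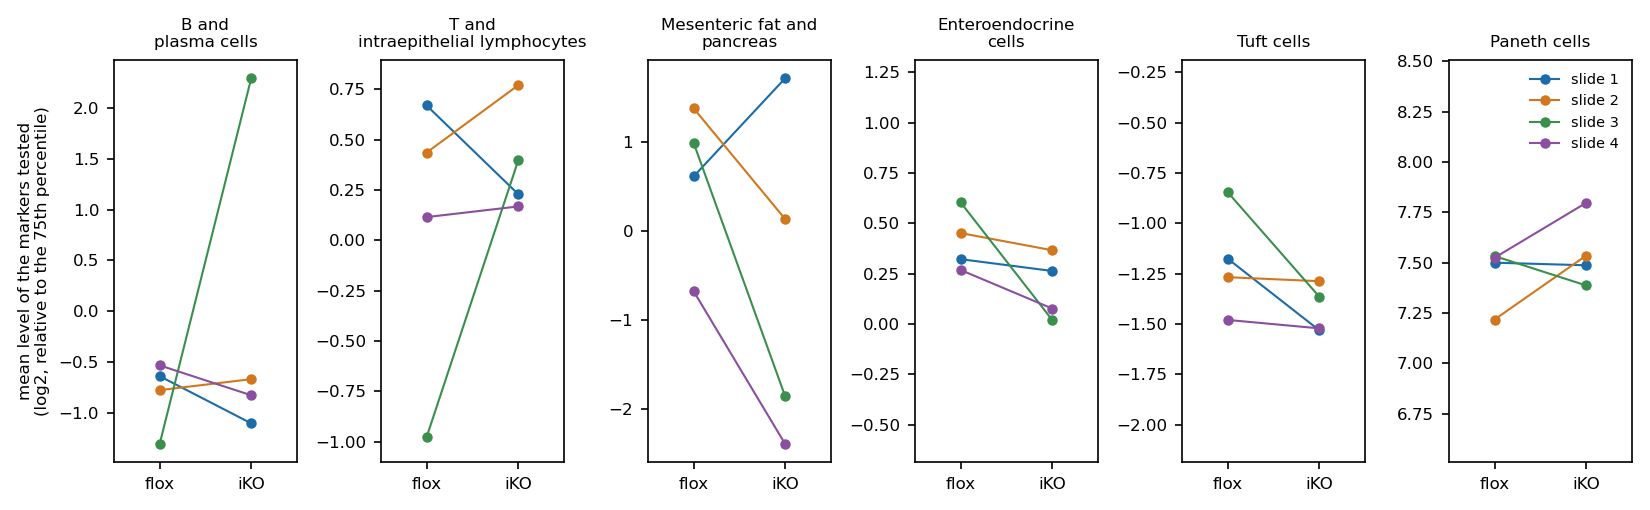
Each panel plots the mean level of the tested markers of a cell type on each array (log2, relative to the 75th percentile), with lines joining the arrays of a slide. The B and plasma cell markers were at 2.29 in iKO 4 and at -0.53 or below elsewhere, and the T cell markers were at -0.98 in flox 3.

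**Figure D5:**
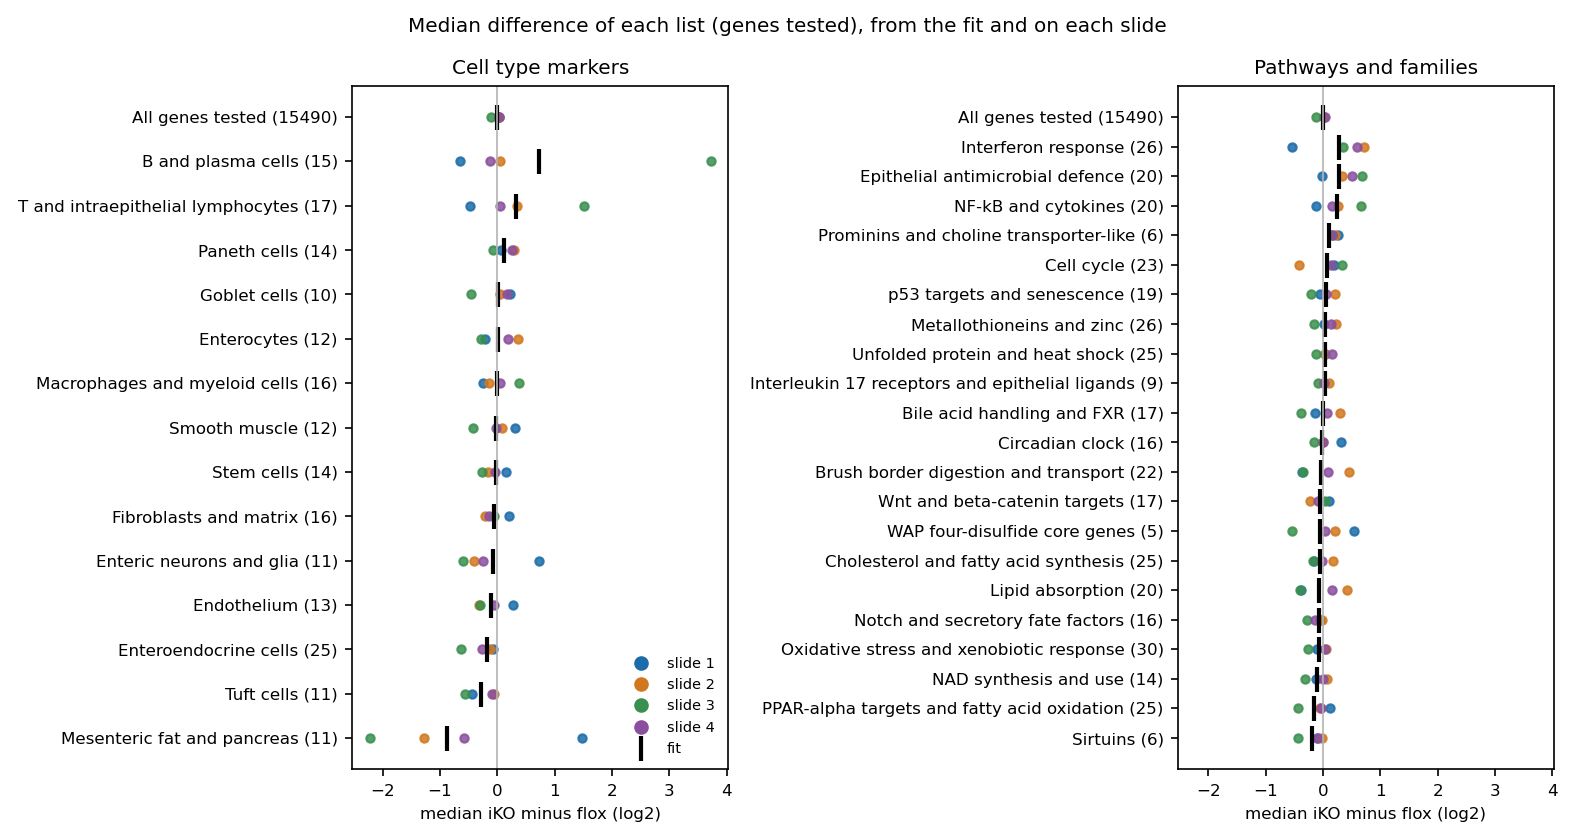
The plot shows the median difference, iKO minus flox (log2), of each list from the fit (black bars) and on each slide (points), with the number of genes tested in brackets. The enteroendocrine, tuft cell, sirtuin and Notch lists were below 0 on all 4 slides, while the B and plasma cell median of 0.72 came with 3.73 on slide 3.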

How the data were processed

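Whole-ileum RNA was hybridised to Agilent 4x44K mouse arrays in 1 colour. The intensities are the deposited processed signals of Agilent Feature Extraction 9.5 (per the submitters' processing notes), which are background-subtracted and detrended per the file headers and not scaled between arrays. The deposited value table held the same numbers. Each array's log2 signal was set relative to its 75th percentile, leaving out flagged spots and controls. Names came from the RefSeq table (GRCm38.p6): an accession matched for 23082 of 41174 probes, a symbol for 6582 and a synonym for 3073, while 8437 kept the array's own name, giving 27666 names. The brightest probe stood for a gene. A gene was tested where some ileum group had it well above background throughout. The main fit used limma 3.58.1 in R 4.3.3 on 15 ileum arrays (11 residual degrees of freedom), with Benjamini-Hochberg adjustment over all genes. Tested on simulated data for this comparison (15490 genes), it recovered 73 of 100 genes shifted by 1 and 93 of 100 shifted by 2 (log2), with 9 unchanged genes called. The planted shifts outnumber the 7 genes that passed here and so loosen the unadjusted p that the adjustment requires. These rates can therefore overstate recovery in this comparison.

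Named genes were Sirt1, all that passed, those next in p to 12 in each direction, 8 in each direction by size among genes above background on all 8 arrays without overlap, and of each list the members of smallest p and of the called genes' families. The genes, the 21 pathway lists and the 14 marker lists were chosen with earlier results of these data known. Some genes that the rule names are not reported here. Colon arrays were not used here.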

Additional observations from a re-analysis of the deposited data

Results flagged for a closer look

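In groups of 4 arrays, 15 values stood apart from the 3 others by more than a Dixon test at 95% allows, out of 282 sets of 4 looked at, and chance flags about 1 in 20. The mean level of B and plasma cell markers was 2.29 in iKO 4. The mean level of Paneth cell markers was 7.22 in flox 2, and that of bile acid genes was 2.87 in flox 2. The mean level of macrophage markers was 0.33 in iKO 2. In flox 3, Reg3g was low at 7.58 and Ccl20 at -3.43, while Il17rb was high at -2.25 and Ltc4s at -0.79. In flox 1, Pllp was low at 0.61, and in flox 2, Hes5 was high at -1.30. In iKO 1, Sdsl was low at 1.65 and Itgam high at -0.83. In iKO 3, Epop was high at 1.53 and Lct low at -4.79, and in iKO 4, Zfp7 was low at 0.58. None of the 7 genes past the threshold, nor Sirt1 or Mt2, was among these values.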

How the results depend on the processing

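The count of 7 genes became 12 with quantile normalization, 3 when a gene's probes were averaged, 3 with the 8 young arrays alone, 2 with these and the slide as a fixed factor, and 14 with a trended, robust prior. It was 5 to 12 when leaving out 1 array in turn, the 12 without aged iKO 2. The count for genotype by age, 0, was 1 with normexp background correction, 1 without flox 3 and iKO 4 (chosen after seeing the data), and 0 to 5 when leaving out 1 array, the 5 without aged flox 1. Mt1 passed in all 31 alternatives, Prom2 and Wfdc15b failed in 1 and 3 of 30, and Ankrd22, Pyroxd2, Il17re and Slc44a2 failed in 2, 4, 11 and 12 of 31. Prom2 and Wfdc15b were not tested where a gene had to be well above background on all 15 ileum arrays. Sirt1 stayed between -0.32 and -0.11. With the replicate block 9 genes passed. After group means were subtracted, same-numbered young flox and iKO arrays correlated by 0.0069 to 0.301, with 3 of these 4 pairs above 0.1. Pairs of the same slide had 0.00546 to 0.447, and the 8 pairs sharing neither had -0.384 to 0.0426. Of the 8 arrays, 4 were closest to their own number. Whether equal numbers mark pairs is not settled by these values, and the main fit does not pair them. The slide as a random block gave 8 genes and as a fixed factor 5, without Slc44a2 and Il17re. Several differences near 0 changed sign. Without flox 3 and iKO 4, Il17ra was -0.15, Il17rd 0.15, Mt3 0.091, Mt4 -0.17, Sirt2 0.016, Sirt4 0.012, Slc39a4 0.092 and Slpi 0.29, the same with the 6 other young arrays alone. With array weights, Mt3 was 0.0093, Mt4 -0.00644 and Slpi 0.00758. With probes averaged, Il17rc was -0.00447, Il17rd 0.030 and Mtf1 0.013, and with quantile normalization Il17rc was -0.051. Leaving out 1 array gave ranges of -0.14 to 0.22 for Il17ra, -0.029 to 0.095 for Il17rc, -0.22 to 0.11 for Il17rd, -0.71 to 0.22 for Mt2, -0.099 to 0.062 for Mt3, -0.21 to 0.30 for Mt4, -0.10 to 0.23 for Prom1, -0.055 to 0.13 for Sirt7, -0.30 to 0.013 for Slc39a4, -0.057 to 0.13 for Slc44a4 and -0.33 to 0.21 for Slpi. The cause of these changes was not tested. The deposited value table equals the scanner signals and so gave no separate analysis. The number of arrays limits the precision.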
